A study of Homo sapiens with 12 samples.

Results

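The family of miR-15, miR-16 and miR-195, a set of microRNAs (miRNAs) that share a seed and are known as brakes on the cell cycle, was described across Saos-2 osteosarcoma cells and their CD99 transfectants during osteoblastic culture. The members were chosen by name: hsa-miR-15a, hsa-miR-15b, hsa-miR-16, hsa-miR-195, hsa-miR-424, hsa-miR-497 and hsa-miR-503, 7 of the 851 names in the deposited table of miRNA values. The presence or absence of miR-195 by cell type was part of that choice, so the differences of miR-195 between the cell types below are a description, and no p is given for any member between the cell types on a given day. Saos-2 is a human osteosarcoma cell line. CD99 is a transmembrane glycoprotein. Sa/CD99 denotes 2 stable, neomycin-selected transfectants of Saos-2 that express CD99, clone 22 and clone 36, and each of them is a single cell line. The promoter that drives CD99 is not given in the sources used here, and CD99 itself is not measured by arrays of miRNAs. The other cells were parental Saos-2, in 2 replicates. Both cell types were sampled under basal conditions (day 0) and after 7 and 14 days in osteogenic medium. This gave 6 groups with 2 Agilent one-colour miRNA arrays each. The osteogenic medium held less serum than the routine medium, and added β-glycerophosphate and ascorbic acid. Each difference from day 0 thus also spans this change of medium, and the 2 cannot be told apart. The labels do not say whether the Saos-2 replicates were separate cultures, so the p-values below measure only the spread between these arrays.

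Mature miRNAs guide the silencing complex to messenger RNAs that pair with their seed, bases 2 to 8 counted from the 5′ end. The miR-15/16 family is best known for repressing cyclin D1, cyclin E1, CDK6 and other genes of the G1 phase, and for repressing the survival factor BCL2. miR-15a and miR-16 are lost with a deletion on chromosome 13 in many chronic lymphocytic leukemias, and miR-195 and miR-497 are often called tumour suppressors. In muscle and other tissues miR-195, miR-424 and miR-503 accompany the exit from the cell cycle that comes with differentiation.

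The sequences are shown because the seed defines the family and because the rest of each sequence is what lets an array tell its members apart. All 7 names matched a mature sequence of RefSeq on GRCh38.p14 under the present name of the 5p arm. Capitals mark bases 2 to 8.

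hsa-miR-15a-5p: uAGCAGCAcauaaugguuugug
hsa-miR-15b-5p: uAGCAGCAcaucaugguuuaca
hsa-miR-16-5p: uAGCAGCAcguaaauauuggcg
hsa-miR-195-5p: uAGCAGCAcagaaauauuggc
hsa-miR-424-5p: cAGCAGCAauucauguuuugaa
hsa-miR-497-5p: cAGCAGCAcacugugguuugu
hsa-miR-503-5p: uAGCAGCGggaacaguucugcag

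Of the 7 members, 6 carried the same seed, and that of miR-503 differed from it by A8G, with the common seed's base given first and the position counted from the 5′ end. Over the whole length compared from the 5′ end, seed included, miR-16 and miR-195 were the most alike pair, with the same base at 19 of 21 positions, or 90.5%. miR-15a and miR-15b had the same base at 18 of 22, or 81.8%. The least alike pair was miR-497 and miR-503, with 10 of 21.

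The members come from 8 loci that form 4 pairs. miR-15a (chr13:50049167-50049188, minus strand) and 1 copy of miR-16 (chr13:50049027-50049048, minus strand) lie in hairpins 57 bases apart within DLEU2, a long non-coding RNA gene. miR-15b (chr3:160404607-160404628, plus strand) and the other copy of miR-16 (chr3:160404754-160404775, plus strand) lie 59 bases apart within SMC4, which encodes a condensin subunit, and within the overlapping non-coding gene TRIM59-IFT80. Both loci give the same mature miR-16, so that its level sums 2 genes and cannot be assigned to either. miR-195 (chr17:7017667-7017687, minus strand) and miR-497 (chr17:7017979-7017999, minus strand) share the host MIR497HG, with 209 bases between their hairpins. miR-424 (chrX:134546680-134546701, minus strand) and miR-503 (chrX:134546371-134546393, minus strand) are 215 bases apart. The hairpin of miR-503 lies whole within MIR503HG and that of miR-424 only in part.

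The deposited records disagree on which array belongs to which sample, and this touches every value below. The pattern of detection over the 847 shared names was set beside that of every scanner array. All 12 table columns matched exactly 1 array each, for 847 of 847 names, and in all 12 cases that array had been filed under another sample. The columns of the table, with their own labels, are used first, and values under the filed labels are given beside the main results. By the table's labels the 4 arrays of day 0 and both Saos-2 arrays of day 7 lay on 1 slide, while the Sa/CD99 arrays of day 7 and the 4 arrays of day 14 lay on the other. The comparisons within a slide were thus day 7 against day 0 in Saos-2, day 14 against day 7 in Sa/CD99, and the cell types at days 0 and 14. In all the others, among them the cell types at day 7, day 14 against day 7 in Saos-2 and the interaction, the slide and the comparison cannot be told apart. As filed, all arrays of a cell type lay on 1 slide. The arrays of day 0 were also the dimmest, with total gene signals of 8594 to 11371 scanner units against 25232 to 62236 on the later days. Between 133 and 229 miRNA names were detected on an array, and 100 on all 12. Of 10 mesenchymal miRNAs 8 were detected on every array, and none of 6 blood cell or 7 epithelial miRNAs on any, for cells labelled as an osteosarcoma line. Of 4 muscle miRNAs 1 (miR-133b) and of 2 neuronal miRNAs 1 (miR-9) were detected on some arrays but not on all.

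A value in the table is a log2 level after normalization, and an undetected miRNA stands at the minimum of its column, between -3.004 and -3.322. The table came within 0.318 log2 units, for every value, of a quantile normalization of the matched arrays. Quantile normalization gives each miRNA a value set by its rank on the array. Separate arrays thus often hold identical values, and the same scanner signal receives different values on arrays with different numbers of detected miRNAs. The total gene signal of the matched array, which is not normalized between arrays, is therefore given beside the table value for the members that matter most. Levels in bulk RNA cannot tell fewer expressing cells from less RNA per cell.

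**Figure D1:**
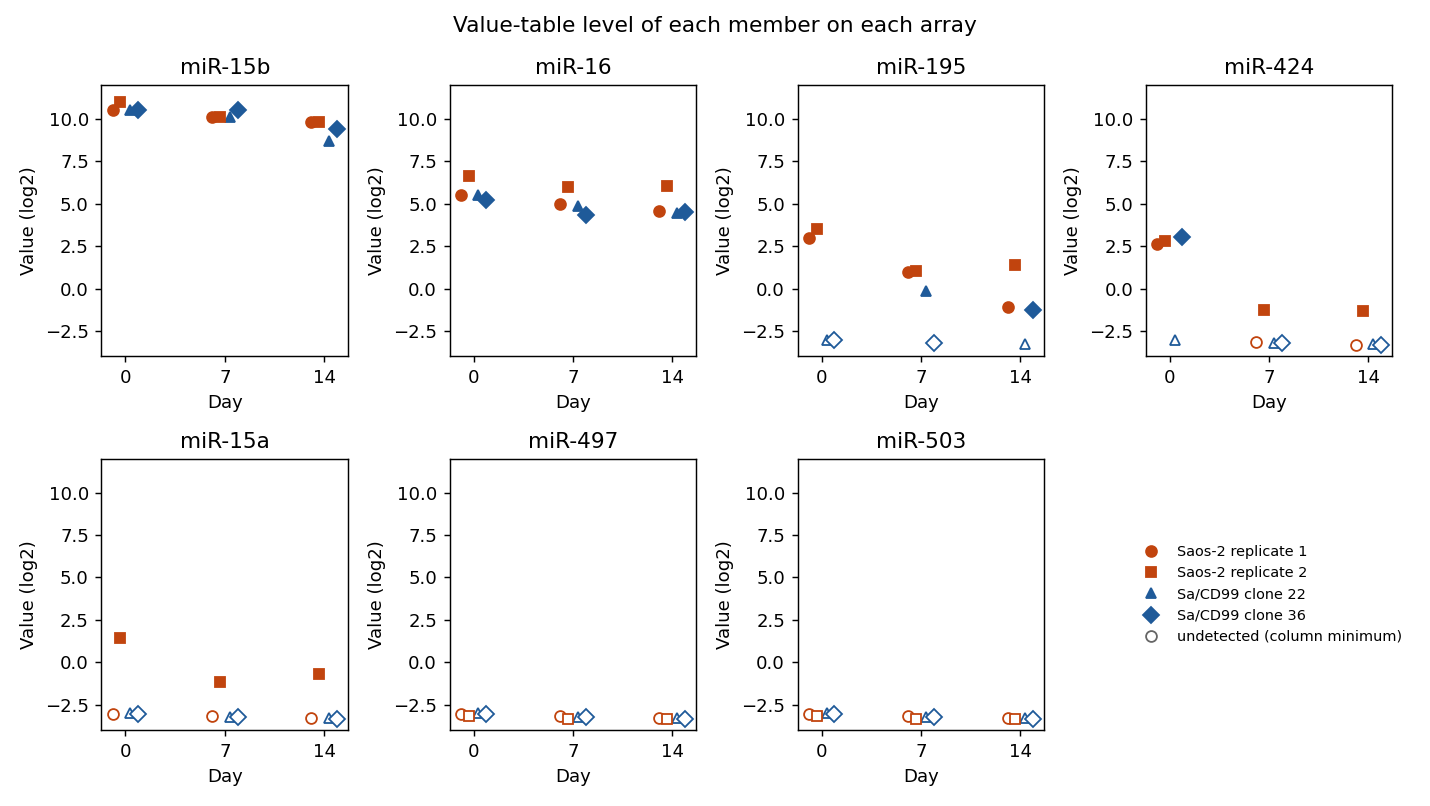
Log2 value in the table (vertical axis) of each of the 7 members on the 12 arrays by day (horizontal axis), with Saos-2 in orange and Sa/CD99 in blue, 1 point per array and open points for undetected miRNAs at the column minimum. miR-15b stands between 8.69 and 10.98 on all arrays, miR-497 and miR-503 are at the minimum on all, and miR-195 is detected on 6 Saos-2 and 2 Sa/CD99 arrays.

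Detection split the family sharply. miR-15b and miR-16 were detected on all 12 arrays, miR-195 on 8, miR-424 on 5 and miR-15a on 3. miR-497 and miR-503 were not detected on any array. Among the spots of miR-497 and miR-503, at most 1 on an array was well above background. The loci did not go together in this respect: miR-195 was detected without its neighbour miR-497 and miR-424 without miR-503. On every array that detected them, miR-195, miR-424 and miR-15a took their signal from 1 of their 2 probes. The other probe of each had 0 of 8 spots well above background on all 12 arrays. The passenger strands, the arms of the hairpins that are usually degraded, were undetected throughout for all 7 that the array carries. Of the 5 further miRNAs of the cluster of miR-424 and miR-503, only miR-542-5p was detected, on 2 arrays.

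The table value of miR-15b, the partner of the chromosome 3 copy of miR-16, was lower at day 14 than at day 0 on the arrays of both cell types. In Saos-2 it was 10.54 and 10.98 at day 0, 10.09 and 10.09 at day 7, and 9.83 and 9.83 at day 14. In Sa/CD99 it was 10.54 and 10.54 at day 0, 10.09 and 10.54 at day 7, and 8.69 and 9.42 at day 14, clone 22 being given before clone 36. The day 14 arrays were below all arrays of day 0 in both cell types, and the lowest value belonged to clone 22. In the order of its column, which fixes the table value, miR-15b held place 1 on all 4 arrays of day 0 and place 2 or 3 at day 7. At day 14 it held places 3 and 4 in Saos-2 and places 9 and 5 in clones 22 and 36.

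In Sa/CD99, miR-15b fell by 1.49 on the log2 scale from day 0 to day 14 (SE 0.36, limma adjusted p = 0.00701) and by 1.26 from day 7 to day 14 (SE 0.36, limma adjusted p = 0.0426). From day 0 to day 7 the difference was -0.23 (SE 0.36, limma adjusted p = 0.686). It was the only member called in these comparisons, in which 74.4%, 19.6% and 32% of the 219 tested miRNAs passed the adjusted threshold of 0.05. The median difference over these 219 was itself below 0, at -0.638, -0.361 and -0.201. The call from day 7 to day 14, the pair of times that share a slide, was lost with the replicate block (adjusted p = 0.0505), and over all 25 alternatives its adjusted p ran from 0.0281 to 0.762. It was lost on leaving out either clone at day 0 or at day 7, clone 22 at day 14, either Saos-2 replicate at day 0 or Saos-2 replicate 1 at day 14, with values of -0.90 to -1.49. The day 14 against day 0 call was kept under 22 of 25 alternatives, with adjusted p from 3.46e-05 to 0.928.

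In Saos-2, miR-15b differed by -0.67 (SE 0.36, limma adjusted p = 0.165) between days 0 and 7, by -0.26 (adjusted p = 0.871) between days 7 and 14 and by -0.93 (adjusted p = 0.0550) between days 0 and 14. None of these passed the threshold in the table as grouped. As filed all 3 turned, to 0.54, 0.14 and 0.68. With the replicate block the difference of day 14 from day 0 passed it (adjusted p = 0.0474), and over the alternatives its adjusted p ran from 0.000905 to 0.951. The background was 36.5% called for day 7 against day 0 and 55.7% for day 14 against day 0, with medians of -0.608 and -0.472. For day 14 against day 7 it was 0%: limma called 0 of 219 miRNAs, with 19 at an unadjusted p under 0.05.

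The size of this difference varied widely with the processing. On the matched arrays its total gene signal was 1353 and 1201 in Saos-2 at day 0, 1042 and 1141 at day 7, and 898 and 1424 at day 14. In Sa/CD99 it was 1479 and 1269 at day 0, 1236 and 1123 at day 7, and 697 and 1179 at day 14. The ranges of days 0 and 14 overlapped in Saos-2 and did not in Sa/CD99, where clone 22 gave the lowest signal of all. Without scaling, the difference of day 14 from day 0 was -0.60 in Sa/CD99 (adjusted p = 0.318), with a higher total signal of the arrays at day 14. At the 75th percentile of the detected miRNAs it was -1.24 (adjusted p = 0.0272). The relabelled scanner spots, normalized by quantiles and summarised per miRNA, gave larger differences, of -3.96 in Sa/CD99 (adjusted p = 0.000348) and -2.51 in Saos-2 (adjusted p = 0.00740), and at day 7 of -2.72 in Sa/CD99 (adjusted p = 0.00646) and -2.29 in Saos-2 (adjusted p = 0.0150). Without scaling the same 2 differences at day 7 were -0.22 and -0.23. In Saos-2 at day 14 the difference from day 0 was -0.17 without scaling (adjusted p = 0.881), -0.20 with columns centred (adjusted p = 0.697) and -0.68 at the 75th percentile (adjusted p = 0.233). With no background correction and with normexp the Sa/CD99 values were -3.83 and -3.76. Centring each column on the median of the miRNAs detected on all arrays, which moves all miRNAs of an array alike, gave -0.37 in Sa/CD99 (adjusted p = 0.428), and from day 0 to day 7 the difference turned to 0.24. With the arrays as filed it turned to 0.63 (adjusted p = 0.928).

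**Figure D2:**
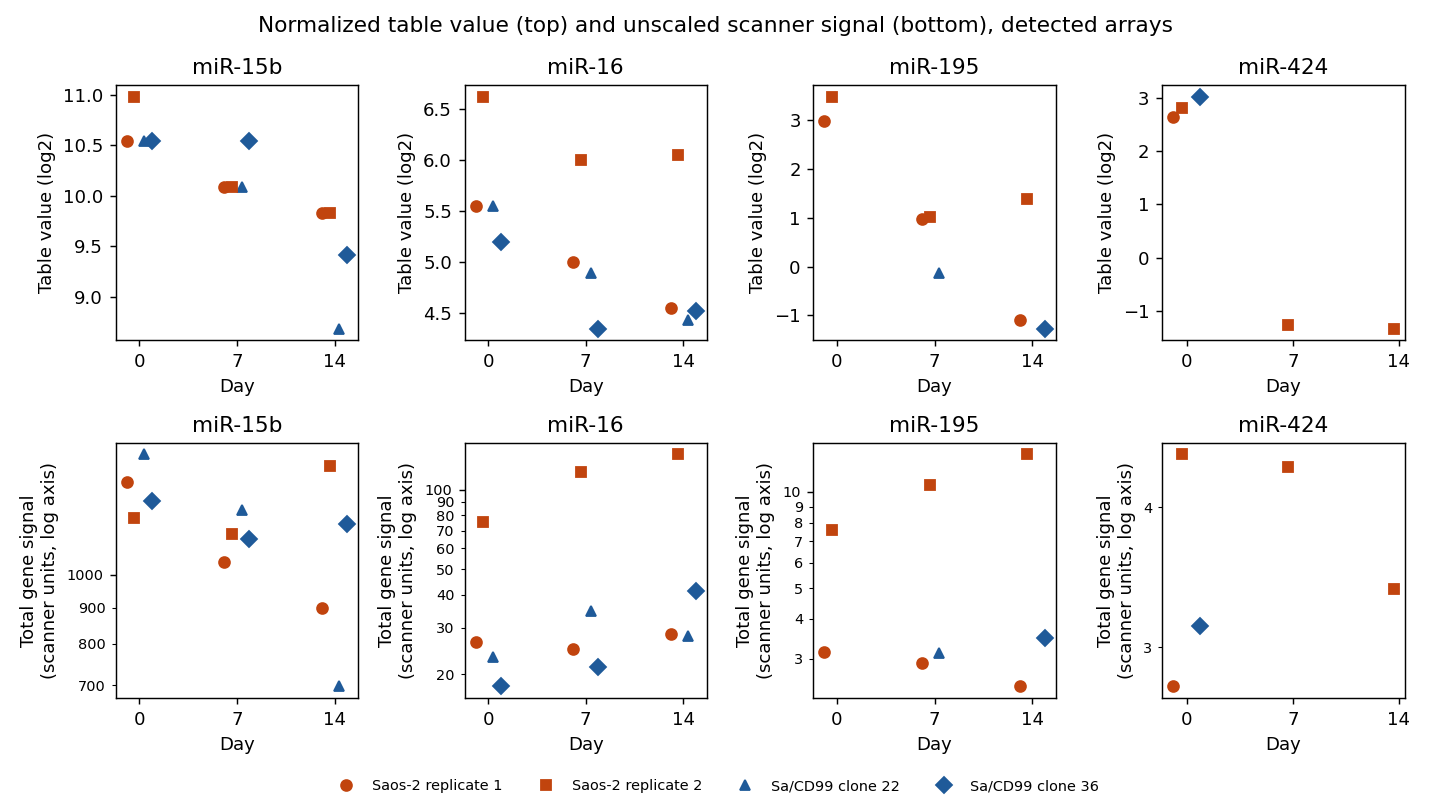
Table value (log2, upper row) and total gene signal of the matched scanner array (scanner units on a log axis, lower row) of miR-15b, miR-16, miR-195 and miR-424 by day, 1 point per array on which the miRNA was detected. The table value of miR-15b falls from 10.54 or more at day 0 to 9.83 or less at day 14 while its signal stays between 697 and 1479, and Saos-2 replicate 2 stands above the other arrays for miR-16 on each day.

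The differences of miR-16 between days were smaller than the difference between the replicates of Saos-2. Its table value in Saos-2 was 5.54 and 6.62 at day 0, 5.00 and 6.00 at day 7, and 4.55 and 6.05 at day 14. In Sa/CD99 it was 5.54 and 5.19 at day 0, 4.89 and 4.35 at day 7, and 4.43 and 4.52 at day 14. Replicate 2 of Saos-2 was above every other array of the same day, and replicate 1 stood at or near the level of clone 22. The Sa/CD99 values of the later days were below those of day 0 without overlap, and in Saos-2 the days overlapped.

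No difference of miR-16 between days passed the threshold in the table. The largest was day 14 against day 0 in Sa/CD99, -0.89 (SE 0.61, limma adjusted p = 0.207). That difference passed with the replicate block (adjusted p = 0.0402) and in 4 of 25 alternatives in all, with adjusted p from 0.00637 to 0.909. In Saos-2 the same difference was -0.78 (SE 0.61, limma adjusted p = 0.293), and as filed 1.06. The unscaled signal of miR-16 did not follow the table value. It was 18.0 to 23.3 at day 0 and 27.9 to 41.4 at day 14 in Sa/CD99, a difference of 0.73 (adjusted p = 0.608), and the total signal of the arrays was also higher at day 14. At day 7 it was 34.8 and 21.4, which overlapped day 0. For clone 36 at days 0 and 7 the signal was that of 1 of the 2 probes of miR-16. The other probe, at 2.31 and 2.83 there, was left out, while on the other arrays both were summed. In Saos-2 it was 26.5, 25.0 and 28.4 at days 0, 7 and 14 in replicate 1 and 75.1, 117 and 136 in replicate 2. Centring the columns gave 0.23 for that difference in Sa/CD99, and the arrays as filed gave 0.80. Centring moves all miRNAs of an array alike, so that a change of sign under it is no measurement on miR-16 alone. The unscaled signal departs from the table by amounts that differ between miRNAs, since the table value is set by rank. It also carries the total signal of each array, so no direction is given for miR-16 here.

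**Figure D3:**
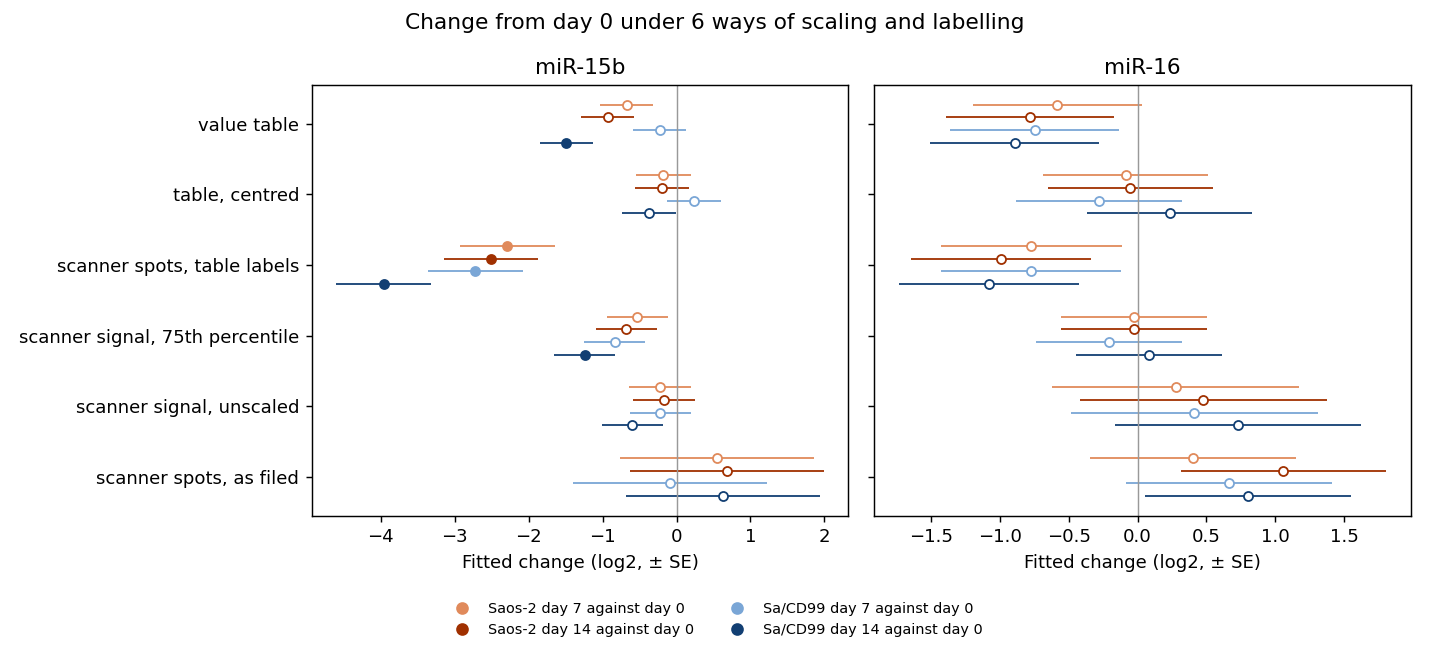
Fitted change from day 0 (log2, horizontal axis, with bars of ± 1 SE) of miR-15b and miR-16 under 6 ways of scaling and labelling the same arrays, with filled points where the adjusted p was at most 0.05. For miR-15b in Sa/CD99 at day 14 the change runs from -3.96 in the relabelled scanner spots to 0.63 in the arrays as filed, and for miR-16 the direction differs between settings.

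miR-195 was detected on all 6 Saos-2 arrays and on 2 of 6 Sa/CD99 arrays. In Saos-2 its table value was 2.98 and 3.49 at day 0, 0.99 and 1.02 at day 7, and -1.09 and 1.39 at day 14. In Sa/CD99 it was undetected in both clones at day 0, -0.12 in clone 22 and undetected in clone 36 at day 7, and undetected in clone 22 and -1.27 in clone 36 at day 14. Saos-2 was above Sa/CD99 without overlap on all 3 days, and at day 14 replicate 1 of Saos-2 (-1.09) stood just above clone 36 (-1.27).

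At day 0 the mean of miR-195 was 3.24 in Saos-2, against -3.02 at the column minimum in Sa/CD99. The probe that gave its signal where detected read 1.96 and 2.37 in clones 22 and 36 at day 0. It read 3.14 and 7.61 in Saos-2 replicates 1 and 2. An undetected miRNA can have more signal than a detected one on another array, so no bound on the fold is given. The difference came with few spots above background. Of its 16 spots, 1 and 8 were well above background in Saos-2 replicates 1 and 2 at day 0, and at most 3 on any Sa/CD99 array. On the matched arrays the signal of the 2 Sa/CD99 arrays that detected it, 3.12 and 3.50, overlapped those of Saos-2 replicate 1, at 3.14, 2.91 and 2.46. The 3 highest signals, 7.61, 10.52 and 13.13, were those of Saos-2 replicate 2. The same 3 arrays held the highest signals of miR-16, the member most alike in sequence, at 75.1, 117 and 136. How far the probes tell miR-195 from miR-16 was not tested. Apart from Saos-2 replicate 2, the detected signals of the cell types overlapped. The undetected clone 36 array of day 7 read 2.74 on the same probe, above the 2.46 of Saos-2 replicate 1 at day 14, which was detected.

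The same array records under the filed labels gave another count. As filed, miR-195 was detected on 4 arrays of Saos-2 and on 4 of Sa/CD99. At day 0 it was then detected on 1 array of each, at signals of 2.46 in Saos-2 replicate 2 and 2.91 in clone 22. Detection on that day no longer split the cell types. The split of miR-424 turned round: it was detected on 4 Saos-2 and 1 Sa/CD99 arrays by the table's labels and on 1 and 4 as filed. miR-15a was detected on 3 and 0 by the table and on 1 and 2 as filed.

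**Figure D4:**
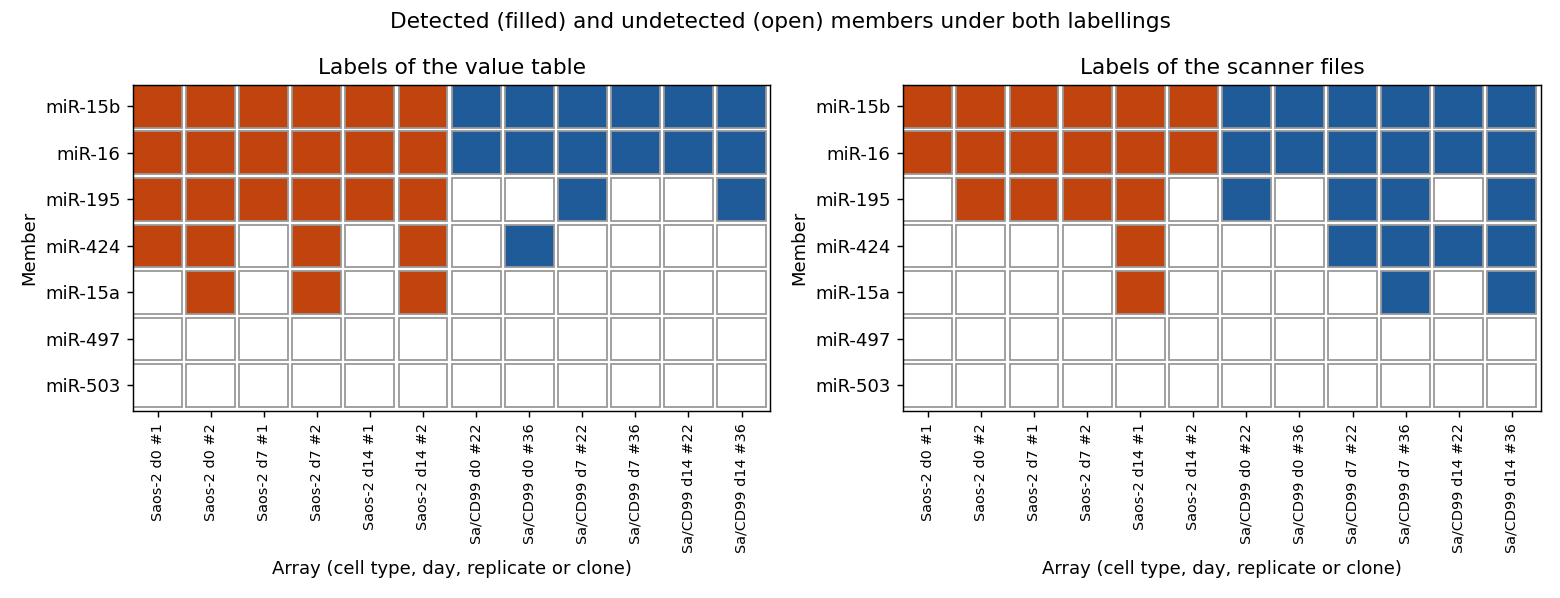
Detected (filled) and undetected (open) members, 1 row each, on the 12 arrays, 1 column each, in orange for Saos-2 and blue for Sa/CD99, under the labels of the value table (left) and of the scanner files (right). miR-195 is filled for 6 Saos-2 and 2 Sa/CD99 arrays on the left and for 4 and 4 on the right.

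Over time, miR-195 in Saos-2 differed by -2.23 between days 0 and 7 (SE 1.16, limma adjusted p = 0.159) and by -3.09 between days 0 and 14 (SE 1.16, limma adjusted p = 0.0513). Over 24 alternatives the adjusted p of the latter ran from 0.0289 to 0.946. As filed these differences turned to 0.042 and 0.45. Its scanner signal did not decline in step: in replicate 1 it was 3.14, 2.91 and 2.46 at days 0, 7 and 14, and in replicate 2 it was 7.61, 10.52 and 13.13. A signal of 3.14 stood for 2.98 in the table at day 0, and one of 3.12 stood for -0.12 in clone 22 at day 7. The lowest value given to a detected miRNA in these columns also differed with the number detected, which was 133 to 158 names at day 0. Without scaling the difference of day 14 from day 0 turned to 0.22.

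miR-424, a member that is induced in several differentiating cell types, was found mainly at day 0 by the table's labels. As filed it was detected on no array of day 0, on all 4 Sa/CD99 arrays of the later days and on 1 Saos-2 array, of day 14. By the table, in Saos-2 it was 2.64 and 2.81 at day 0, then undetected and -1.27 at day 7, and undetected and -1.33 at day 14. In Sa/CD99 it was 3.02 in clone 36 at day 0 and undetected on the other 5 arrays. Its day 14 value in Saos-2 differed from that of day 0 by -5.04 in the fit and was past the threshold, which makes 1 member in that comparison. It had entered the fit through Saos-2 at day 0 alone, the high group of this comparison, and 1 of the 2 day 14 arrays was at the column minimum. The difference is therefore a description, its size is no measure of the change, and nothing is read from its passing the threshold, which it did in 6 of 24 alternatives. As filed the difference was 0.088. In replicate 2, the only one to detect it on each day, the signal was 4.46, 4.35 and 3.38 scanner units.

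miR-15a, the partner of miR-16 in DLEU2, was detected only in replicate 2 of Saos-2, at 1.42, -1.16 and -0.66 on days 0, 7 and 14. Its signals there were 2.64, 4.46 and 6.06. It was not tested, because it was detected on both arrays of no group. In Sa/CD99 it was at the column minimum on all 6 arrays.

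By the table's labels, replicate 2 of Saos-2 stood apart for several members. As filed, the 3 arrays with the highest signal of miR-16 were clone 36 at days 7 and 14 (117 and 75.1) and Saos-2 replicate 1 at day 14 (136), and the values that follow hold for the table's labels alone. Of the 105 miRNAs detected on all 6 Saos-2 arrays, miR-16 had the fifth largest and miR-195 the ninth largest excess of replicate 2 over replicate 1, with means over the days of 1.19 and 1.01 log2 units, while miR-15b, at 0.14, was in place 41. The difference of miR-16 was 1.07, 0.99 and 1.498 on the 3 days, and 3.15%, 9.03% and 10.9% of the miRNAs detected on both arrays had a larger one. In all, 28 of the 105 were higher in replicate 2 on every day and 30 were lower. Without replicate 2 of each day, no member was called in Saos-2, where 69, 39 and 132 of 223 miRNAs were called for day 7 against 0, day 14 against 7 and day 14 against 0, and miR-195 remained detected in the 3 Saos-2 arrays that were left. What set the replicates apart was not tested.

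**Figure D5:**
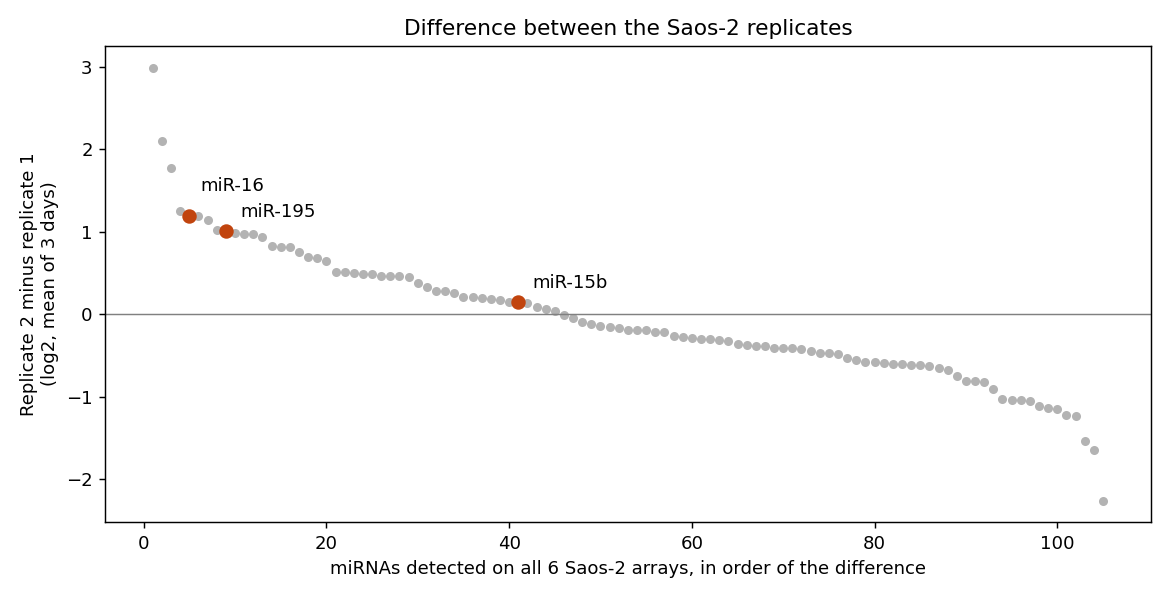
Mean difference of Saos-2 replicate 2 from replicate 1 over the 3 days (log2, vertical axis) for the 105 miRNAs detected on all 6 Saos-2 arrays, in order of size (horizontal axis), with the 3 members among them in orange. miR-16 and miR-195 are at 1.19 and 1.01, near the upper end, and miR-15b is at 0.14.

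Between the cell types, by the thresholds of the methods (a p of 0.01, not adjusted, and a minimum fold change), the members past them were miR-195 at day 0 and none at days 7 and 14. The split of miR-195 was part of the choice of members, so nothing is read from this count. Over all tested miRNAs 2.74% were called at day 0, 3.2% at day 7 and 9.13% at day 14. Sa/CD99 minus Saos-2 was -0.22, 0.23 and -0.78 for miR-15b and -0.71, -0.88 and -0.82 for miR-16 at days 0, 7 and 14. In the arrays as filed these differences were 2.30, 1.67 and 2.25 for miR-15b and 1.002, 1.26 and 0.75 for miR-16, so that the sign turned for miR-16 on all 3 days and for miR-15b at days 0 and 14. In the relabelled scanner arrays miR-15b at day 0 also turned, to 0.69. miR-16 was past the thresholds of the methods on all 3 days in the relabelled arrays with the replicate block, in which 19, 6 and 25 of 219 miRNAs were past them, and on none in the table. By the table's labels, the lower level of miR-16 in Sa/CD99 came with replicate 2 of Saos-2, as the values above show. Whether the course over the days differed between the cell types was asked with the interaction of cell type and day. Neither miR-15b nor miR-16, the members detected on all arrays, was called there (limma adjusted p = 0.761 and 0.997), against 1.83% of all tested miRNAs. For miR-195 and miR-424, which entered the fit through Saos-2 groups alone, no p is given.

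Among the relatives, miR-103 and miR-107 carry the same 7 bases as the common seed of the family but at positions 1 to 7, and they are encoded in introns of pantothenate kinase genes.

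hsa-miR-103a-3p: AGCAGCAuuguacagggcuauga
hsa-miR-107: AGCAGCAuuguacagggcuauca

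Both were detected on all 12 arrays, and miR-646 on none. miR-103 and miR-107 fell in Sa/CD99 from day 0 to day 14, by 1.21 (SE 0.41, limma adjusted p = 0.0269) and by 1.23 (SE 0.41, limma adjusted p = 0.0248), in the comparison in which 74.4% of miRNAs were called. Both calls were lost on leaving out either clone at day 0 or clone 22 at day 14, and both directions turned without scaling (0.19 and 0.19) and in the arrays as filed (0.62 and 0.48). With columns centred the differences were -0.09 and -0.11. Over 25 alternatives the adjusted p ran from 0.000966 to 0.895 for miR-103 and from 0.001495 to 0.873 for miR-107. Neither was called in another comparison. Across the 12 arrays, which share clones, slides and a common normalization, miR-103 and miR-107 had Pearson correlations with miR-16 of 0.842 and 0.719. miR-15b and miR-16, which share a locus on chromosome 3, had 0.535. The 3 miRNAs outside the family most like miR-16 were miR-20a, miR-17 and miR-27a, with correlations of 0.978, 0.977 and 0.934. Those most like miR-15b were miR-1260, miR-181a-2* and miR-100, with 0.925, 0.902 and 0.882, all among 98 candidates detected on every array. In the relabelled scanner arrays the correlations of these 3 with miR-15b were 0.713, 0.933 and 0.885, so that their order depended on the normalization.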

How the data were processed

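The labelled RNA of 12 samples was hybridised by the authors to Agilent human miRNA arrays (v.3), 1 colour each, and scanned, and the spot intensity values were deposited as Feature Extraction 10.7.3.1 wrote them, without normalization across arrays. A second record deposited by the authors is a table of log2 values for 851 names, of which 847 were shared with the scanner files. The submitters' processing notes name RMA for it and the methods an adaptation of RMA for miRNAs, and how it treats undetected miRNAs is not given in the sources used here. Its columns were grouped by their own labels.

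The 219 miRNAs that both arrays of some group detected were fitted with limma 3.58.1 on R 4.3.3 as 6 groups of 2 arrays, with 6 residual degrees of freedom, two-sided, with Benjamini-Hochberg adjustment over all of them. Of the 7 members 4 were tested. miR-195 passed this filter through the Saos-2 groups alone and miR-424 through Saos-2 at day 0 alone. Day contrasts and the interaction were called at an adjusted p of 0.05. The fit was tested on simulated data. Scanner alternatives used the median spot intensity, without flagged spots, after an RMA-type background correction, none or normexp (offset 50), then quantile normalization and median polish, or the total gene signal, with the arrays as filed (213 miRNAs tested) or relabelled, that is, given the sample of the matching column of the table. The number of arrays limits the precision.

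Clones 22 and 36 are the same lines across days, so their numbers pair the arrays of Sa/CD99. Deviations of same-numbered arrays from their group means had correlations of 0.0338 to 0.184 in Sa/CD99 and of 0.18 to 0.203 in Saos-2, in the table. As filed they ran from -0.91 to 0.198 in Sa/CD99 and from -0.631 to 0.0322 in Saos-2. The block with the replicate number used the numbers of both cell types. The miRNAs named are the members, their passenger strands, the cluster of miR-424 and miR-503, the relatives and the 3 miRNAs most correlated with miR-15b and miR-16. The members, lists and tests were chosen with earlier results of these data known. The slide could not be fitted as a block, since each group lies on 1 slide.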

Additional observations from a re-analysis of the deposited data

How the results depend on the processing

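The counts of members called moved as follows, with the count in the table given before the alternatives. For Saos-2 day 7 against day 0 it was 0, and 1 in the relabelled scanner arrays (also with no background correction and with normexp), 4 with no filter, 1 (miR-424) with the replicate block, 2 in the relabelled arrays with that block and 2 with only the 4 arrays compared, and 0 to 1 with 1 array left out. For Saos-2 day 14 against day 0 it was 1 (miR-424), and 0 as filed, at the 75th percentile, unscaled, with columns centred, without Saos-2 replicate 2 of every day and by the methods' thresholds, 5 with no filter, 2 with either replicate block, and 0 to 2 with 1 array left out. Equal counts did not always name the same member, since the relabelled arrays called miR-15b there. For Sa/CD99 day 7 against day 0 it was 0, and 1 in the 3 relabelled settings, 2 with no filter, 2 in the relabelled arrays with the block and 0 to 1 with 1 array left out. For Sa/CD99 day 14 against day 7 it was 1, and 0 in all scanner settings, with columns centred, with no filter, with either replicate block and with only the 4 arrays compared, and 0 to 1 with 1 array left out. For Sa/CD99 day 14 against day 0 it was 1, and 0 as filed, unscaled and with columns centred, 3 with no filter, 2 with either replicate block, without Saos-2 replicate 2 and with only the 4 arrays compared, and 1 to 2 with 1 array left out. Between cell types at day 0 it was 1, and 0 as filed, in the 3 relabelled settings, unscaled, among miRNAs detected on all 12 arrays and without Saos-2 replicate 2, and 1 to 2 with 1 array left out. At days 7 and 14 it was 0, and 1 (miR-16, which was also the 1 at day 0) in the relabelled arrays with the block, and at day 7 0 to 1 with 1 array left out. The counts for Saos-2 day 14 against day 7 and for the interaction stayed at 0 under every alternative run. miR-195 was detected on 2 Sa/CD99 arrays, and on 4 as filed.

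With no filter, limma called the undetected miR-497 and miR-503, whose values differ between days only by the column minimum. Over all miRNAs, calls for Saos-2 day 7 against day 0 were 80, with 0 as filed and 700 with no filter; for day 14 against day 0 they were 122, 0 and 727. For Sa/CD99 they were 70, 0 and 688 for day 7 against day 0, 43, 0 and 11 for day 14 against day 7, and 163, 0 and 760 for day 14 against day 0. Leaving out 1 array gave 61 to 114, 65 to 132, 45 to 83, 5 to 79 and 138 to 167 in the same order. With the replicate block of the table the calls in that order were 98, 135, 84, 35 and 176 of 219, in the relabelled arrays with the block 139, 150, 111, 66 and 174 of 219, without Saos-2 replicate 2 69, 132, 106, 94 and 183 of 223, and with only the 4 arrays compared 62 of 174, 92 of 199, 94 of 174, 74 of 200 and 184 of 206. In the relabelled arrays they were 102, 128, 91, 37 and 157 of 219, at the 75th percentile 65, 82, 62, 53 and 121, unscaled 57, 72, 52, 34 and 99, and with columns centred 69, 97, 59, 61 and 118. Over the alternatives with the filter, calls between cell types were 0 to 26 at day 0 (6 in the table), 0 to 28 at day 7 (7) and 1 to 37 at day 14 (20), those of the interaction 0 to 26 (4) and those of Saos-2 day 14 against day 7 0 to 39 (0). With other settings the cause of a change was not tested. A group left with 1 array was assumed to vary like the others.

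Directions reversed as follows. miR-15b as filed was 0.54 in Saos-2 from day 0 to 7, 0.14 from 7 to 14 and 0.68 from 0 to 14, and in Sa/CD99 0.73 from 7 to 14 and 0.63 from 0 to 14; unscaled it was 0.053 in Saos-2 from 7 to 14, and with columns centred 0.24 in Sa/CD99 from 0 to 7. miR-16 as filed was 0.40, 0.65 and 1.06 in Saos-2 and 0.67, 0.14 and 0.80 in Sa/CD99, in the same order; unscaled it was 0.28, 0.20 and 0.48, and 0.41, 0.32 and 0.73. With columns centred miR-16 was 0.034 in Saos-2 from 7 to 14, and in Sa/CD99 0.51 from 7 to 14 and 0.23 from 0 to 14; at the 75th percentile it was 0.29 and 0.085 there. Leaving out 1 array gave -0.95 to 0.55 for miR-16 in Saos-2 and -0.42 to 0.13 in Sa/CD99 from 7 to 14, and -2.10 to 0.38 for miR-195 in Saos-2. miR-195 in Saos-2 as filed was 0.042, 0.41 and 0.45, and unscaled 0.18, 0.038 and 0.22; from 7 to 14 the relabelled arrays gave 0.0086 with and without the block, 0.00047 with no background correction and 0.0011 with normexp. miR-424 from 0 to 14 in Saos-2 was 0.088 as filed. From day 0 to 14 in Sa/CD99, miR-103 was 0.62 as filed and 0.19 unscaled, and miR-107 0.48 and 0.19. Between cell types, as filed, miR-15b was 2.30 at day 0 and 2.25 at day 14 and miR-16 1.002, 1.26 and 0.75 at days 0, 7 and 14; miR-15b at day 0 was 0.69 in the relabelled arrays, with the block and with normexp too, 0.70 with no background correction, 0.48 at the 75th percentile and 0.10 unscaled. The replicate block of the table changed no other call of a member than those given here. Over all miRNAs it moved the calls of the interaction from 4 to 2, and those of every other comparison by less than 1.5 times.

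Scaling to the 75th percentile of all miRNAs was not run, because that percentile was at the floor on 10 of 12 arrays. Unscaled signal, the block in relabelled arrays and leaving out Saos-2 replicate 2 of every day were chosen after seeing the data. For miR-195, miR-424 and miR-15a the signal over background is the limit.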
